A study of Mus musculus with 4 samples.

Results

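The nuclei described here are the pericentral and periportal hepatocyte nuclei of the undamaged mouse liver, as single-nucleus chromatin accessibility (scATAC-Seq) separated them at PHx 0 h. Hepatocytes next to the central vein and hepatocytes next to the portal tract cannot be told apart by position in a suspension, so each nucleus was placed by the accessibility of 11 genes with a textbook zonal pattern. Counts in peaks over 5 pericentral genes (Cyp2e1, Cyp1a2, Cyp2a5, Glul and Slc1a2) were divided by the counts over these and 6 periportal genes (Cyp2f2, Hal, Gls2, Hsd17b6, Sds and Amdhd1), each gene taken as its body with 2000 bp upstream. Of 4645 barcodes in the 0 h library, 3569 held at least 3000 counts and 3460 of these also held at least 4 marker counts. A pericentral share of marker counts of at least 0.6 defined 795 pericentral nuclei, and a share of at most 0.2 defined 1596 periportal nuclei. Together these are 2391 nuclei of the 20217 barcodes in the whole series.

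The study followed liver regeneration in adult male C57BL/6J mice on standard chow, which the labels give as 10 to 12 weeks old. Hepatocytes were freed by collagenase perfusion from livers without surgery (PHx 0 h, undamaged liver) or from livers regrowing for 48, 72 and 96 h after PHx, an operation in which a large part of the liver is cut away (partial hepatectomy), and the nuclei of each time point made 1 scATAC-Seq library. The 0 h library thus stands for 1 hepatocyte preparation, the nuclei within it are not replicates, and no difference below has a replicate check. Every interval below is a 95% interval that covers counting error only.

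The liver lobule is divided by the direction of its blood flow, from the portal tract, where blood rich in oxygen and nutrients enters, to the central vein, where it leaves. Periportal hepatocytes are known for urea synthesis, amino acid breakdown and gluconeogenesis. Pericentral hepatocytes are known for glutamine synthesis, bile acid synthesis and drug metabolism by cytochromes P450, and Wnt ligands from the endothelium of the central vein maintain this programme through beta-catenin and the TCF/LEF family of DNA-binding proteins. An open stretch of chromatin is where the transposase of the assay could cut, so a higher count over a gene says that its DNA was more often accessible, not that it was more transcribed.

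The sequences below are chosen examples of distal regions that were more accessible in the pericentral or in the periportal nuclei. A distal peak is one more than 1000 bp from every annotated gene start. The 7 windows are the central 300 bp of distal peaks outside exons, of at most 1500 bp and with at least 400 counts. They have the largest ratios between the groups among such peaks, with the peaks of 1 chromosome left out of the choice. The pericentral windows were taken among the peaks whose central window holds the TCF/LEF core motif, a choice made after the values were seen, and the periportal windows by ratio alone. Capitals mark CTTTGAT or its reverse complement ATCAAAG, and all sequences are given on the plus strand of GRCm38. Pericentral window 1 lies in an intron of Rasgrp1 at chr2:117322166-117322465, and its peak had 13.3 CPM (counts per 1000000 counts of the group) in pericentral and 1.89 CPM in periportal nuclei. Pericentral window 2 is intergenic at chr6:127341578-127341877, with 13.1 against 2.38 CPM. Pericentral window 3 is intergenic at chr1:181308037-181308336, with 8.88 against 1.72 CPM. Pericentral window 4 lies in an intron of Susd4 at chr1:182823811-182824110, with 14.4 against 3.5 CPM. All 4 peaks were at least 4 times as accessible in the pericentral nuclei.
Pericentral window 1: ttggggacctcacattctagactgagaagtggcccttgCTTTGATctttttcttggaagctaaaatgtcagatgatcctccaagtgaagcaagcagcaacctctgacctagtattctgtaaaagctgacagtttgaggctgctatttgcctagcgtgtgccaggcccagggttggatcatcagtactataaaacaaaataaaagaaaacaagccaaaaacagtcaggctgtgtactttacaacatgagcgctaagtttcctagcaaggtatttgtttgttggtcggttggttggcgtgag
Pericentral window 2: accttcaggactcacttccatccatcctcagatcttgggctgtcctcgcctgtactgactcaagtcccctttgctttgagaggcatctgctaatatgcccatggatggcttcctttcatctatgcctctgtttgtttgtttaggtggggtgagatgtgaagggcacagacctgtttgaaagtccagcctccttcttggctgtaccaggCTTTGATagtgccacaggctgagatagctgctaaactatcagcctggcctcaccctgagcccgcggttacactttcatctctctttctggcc
Pericentral window 3: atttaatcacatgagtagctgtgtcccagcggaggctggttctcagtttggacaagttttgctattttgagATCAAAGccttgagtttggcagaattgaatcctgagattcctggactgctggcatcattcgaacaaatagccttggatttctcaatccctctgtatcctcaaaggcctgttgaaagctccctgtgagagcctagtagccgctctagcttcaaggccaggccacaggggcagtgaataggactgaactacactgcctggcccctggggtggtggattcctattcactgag
Pericentral window 4: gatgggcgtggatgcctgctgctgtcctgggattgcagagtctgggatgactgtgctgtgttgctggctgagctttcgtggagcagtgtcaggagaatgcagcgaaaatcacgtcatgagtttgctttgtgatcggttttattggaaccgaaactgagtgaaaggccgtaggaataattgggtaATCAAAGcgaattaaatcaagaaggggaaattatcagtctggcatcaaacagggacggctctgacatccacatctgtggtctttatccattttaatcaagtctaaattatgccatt

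The periportal windows hold no match to this motif, and since only the pericentral ones were chosen by it, this is no comparison. Over all distal peaks past 1.5-fold, 10.3% of pericentral and 4.51% of periportal windows held it. Periportal window 1 is intergenic at chr15:11029879-11030178, 7401 bp from the start of Rxfp3, and its peak had 0.564 CPM in pericentral and 9.34 CPM in periportal nuclei. Periportal window 2 is intergenic at chr13:57308500-57308799, with 1.49 against 11.4 CPM. Periportal window 3 lies in an intron of Chrm3, which encodes a muscarinic acetylcholine receptor, at chr13:10263820-10264119, with 1.30 against 9.43 CPM.
Periportal window 1: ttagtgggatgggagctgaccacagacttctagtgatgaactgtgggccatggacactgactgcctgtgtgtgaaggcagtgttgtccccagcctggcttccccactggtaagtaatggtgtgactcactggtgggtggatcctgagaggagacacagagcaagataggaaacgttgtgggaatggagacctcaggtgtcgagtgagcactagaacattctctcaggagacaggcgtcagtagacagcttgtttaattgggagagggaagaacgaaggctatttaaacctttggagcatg
Periportal window 2: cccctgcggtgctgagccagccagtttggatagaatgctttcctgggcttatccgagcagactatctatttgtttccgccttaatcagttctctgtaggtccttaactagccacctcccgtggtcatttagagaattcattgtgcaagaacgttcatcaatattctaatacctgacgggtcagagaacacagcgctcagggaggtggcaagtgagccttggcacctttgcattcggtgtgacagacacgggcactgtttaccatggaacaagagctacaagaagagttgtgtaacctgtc
Periportal window 3: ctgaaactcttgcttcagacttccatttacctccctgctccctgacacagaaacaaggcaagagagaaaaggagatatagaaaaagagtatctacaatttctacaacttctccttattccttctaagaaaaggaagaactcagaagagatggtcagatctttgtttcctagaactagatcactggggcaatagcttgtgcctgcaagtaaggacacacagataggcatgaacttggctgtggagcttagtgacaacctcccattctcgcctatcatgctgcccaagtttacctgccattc

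Among the genes with the largest pericentral ratios, 2 had the same motif before their RefSeq start, and their 250 upstream bases are shown for that reason. Sp5 encodes a zinc-finger transcription factor that is a direct Wnt target, and the match lies 104 bp before its start. Cyp2c29 encodes a pericentral cytochrome P450, and the match lies 119 bp before its start. The windows are chr2:70474673-70474922 and chr19:39286835-39287084 of GRCm38.p6, both genes being on the plus strand.
Sp5 promoter: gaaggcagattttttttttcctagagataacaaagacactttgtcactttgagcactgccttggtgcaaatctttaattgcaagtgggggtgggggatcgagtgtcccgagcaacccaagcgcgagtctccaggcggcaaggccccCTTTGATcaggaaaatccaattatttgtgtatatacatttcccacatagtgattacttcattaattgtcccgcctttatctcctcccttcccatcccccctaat
Cyp2c29 promoter: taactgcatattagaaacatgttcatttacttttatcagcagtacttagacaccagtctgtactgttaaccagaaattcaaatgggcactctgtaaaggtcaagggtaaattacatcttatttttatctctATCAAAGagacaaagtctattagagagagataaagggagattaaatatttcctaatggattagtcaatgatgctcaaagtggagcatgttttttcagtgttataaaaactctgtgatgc

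The marker share spread over its whole range. The median share was 0.770 in the pericentral nuclei, 0.0887 in the periportal nuclei and 0.375 in the 1069 nuclei between the limits. No pericentral marker count was found in 294 nuclei and no periportal one in 42. Those 294 and 42 nuclei were shallow, with median counts of 10195.5 and 7741, below the medians of their groups given below. The pericentral nuclei made up 22.3% (20.9 to 23.7, exact binomial) of the nuclei with at least 3000 counts, the periportal nuclei 44.7% (43.1 to 46.4) and the nuclei between the limits 30.0% (28.5 to 31.5). The remaining 109 nuclei held fewer than 4 marker counts. These shares are set by the limits and by which markers were taken, and with any 1 of the 11 markers left out the rule found between 376 and 1272 pericentral and between 944 and 2025 periportal nuclei.

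**Figure D1:**
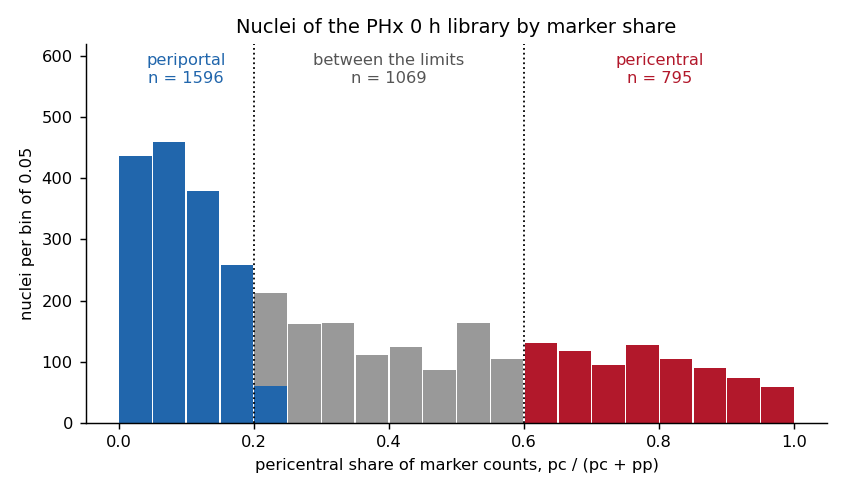
Number of nuclei per bin of 0.05 by pericentral share of marker counts (x axis) in the PHx 0 h library, coloured by group, with the limits as dotted lines. Periportal nuclei with a share of exactly 0.2 fall in the bin that starts there. The 1596 periportal nuclei lie at or below 0.2, the 795 pericentral nuclei at or above 0.6, and the 1069 nuclei between the limits fill the range in the middle without a gap.

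Oat, a gene the rule did not use, shows the nuclei just inside and just outside each limit. The 130 nuclei with shares from 0.6 up to 0.65 had 234 CPM over Oat and the 105 nuclei just below the limit had 179 CPM. The 313 nuclei from 0.15 to 0.2 had 64.9 CPM and the 153 nuclei just above 0.2 had 70.8 CPM. Neither limit fell at a gap in the values.

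The markers themselves are given as a description, since they chose the nuclei. Cyp2e1, a P450 that oxidises ethanol, gave 48.7% of the pericentral marker counts and stood at 701 CPM in pericentral, 362 CPM in intermediate and 35.5 CPM in periportal nuclei. Glul, the glutamine synthetase gene, stood at 253, 105 and 48.5 CPM in the same order, and Slc1a2, a glutamate transporter gene, at 208, 91.5 and 62.8 CPM. Cyp1a2, another P450, stood at 132, 85.2 and 37.8 CPM, and Cyp2a5, the coumarin hydroxylase, at 79.3, 24.1 and 7.85 CPM. Every pericentral marker had its intermediate value in the intermediate nuclei.

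The periportal markers ran the other way. Amdhd1 and Hal, which encode neighbouring enzymes of histidine breakdown, share a peak. It is the only peak of Hal and 1 of those of Amdhd1 and entered the marker sum of a nucleus once, so that the 38.7% of the periportal marker counts over Hal are part of the 53.9% over Amdhd1. Hal stood at 112 CPM in pericentral, 396 CPM in intermediate and 711 CPM in periportal nuclei. Amdhd1 stood at 220, 578 and 922 CPM, Gls2, the liver glutaminase, at 95.3, 221 and 287 CPM, and Cyp2f2, a periportal P450, at 44.4, 130 and 261 CPM. Hsd17b6, a steroid dehydrogenase gene, stood at 35.3, 83.5 and 177 CPM and Sds, the serine dehydratase gene, at 13.5, 35.7 and 87.8 CPM. When each marker was left out of the rule in turn and the nuclei were chosen again by the others, all 11 kept their direction. The log2 ratio of pericentral over periportal was then 3.12 for Cyp2a5, 2.41 for Cyp2e1, 1.95 for Glul, 1.56 for Slc1a2 and 1.45 for Cyp1a2, and −2.54 for Sds, −2.30 for Cyp2f2, −2.16 for Hsd17b6, −1.99 for Hal, −1.36 for Amdhd1 and −1.25 for Gls2.

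Both groups were mostly hepatocyte nuclei by their markers, and they differed in depth. The 10 hepatocyte marker genes summed to 3624 CPM in pericentral, 4142 CPM in intermediate and 4713 CPM in periportal nuclei, with Alb, Tat and Ahsg at least 1.5-fold higher in the periportal ones. The 10 endothelial marker genes summed to 313, 306 and 290 CPM, and 0 of the 9 measured were higher in pericentral nuclei at 1.5-fold while Flt4 was lower there (10.3 against 16.2 CPM). Of 10 Kupffer and myeloid marker genes, 7 held no peak counts at all, among them Adgre1, Clec4f and Vsig4. The list summed to 142, 126 and 111 CPM. Of 10 stellate and mesenchymal marker genes 4 held none, among them Dcn and Des, the list summing to 73.6, 77.3 and 82.2 CPM. A gene without a called peak can hold no counts here, so these zeros do not measure the absence of a cell type. Median counts per nucleus were 37134 in pericentral, 35454 in intermediate and 25840.5 in periportal nuclei, and 3.02% of pericentral against 0.501% of periportal nuclei had more counts over markers of another cell type than over hepatocyte markers. The part of depth in the ratios below was not tested beyond the alternatives given with them.

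Barcode sequences recurred between the libraries. Of the 0 h barcodes, 1066 were also present in another time point's library, among them 243 of the 795 pericentral nuclei (30.6%) and 308 of the 1596 periportal nuclei (19.3%). These nuclei were deep, with a median of 76541 counts against 26602 for the other pericentral nuclei and 63444 against 21662.5 for the other periportal nuclei. The main counts below are therefore also given without them.

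Away from the marker windows the 2 groups differed at a small share of genes. Counts were summed over all peaks of each gene and scaled to CPM by the totals outside the markers, 35460456 in pericentral and 51200790 in periportal nuclei. Of 14973 protein-coding genes with at least 400 counts, 223 (1.49%) were at least 1.5-fold higher in pericentral nuclei and 256 (1.71%) were at least 1.5-fold higher in periportal nuclei, with a median log2 ratio of 0.04 and an SD of 0.26 over genes. Without the shared barcodes the counts were 222 and 224 genes, and with each peak scored as open or closed in a nucleus they were 175 and 119.

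The largest pericentral ratios among genes with at least 1000 counts were those of Cyp2c29, Oat, Aldh3a2 and Pdk4. Cyp2c29 had 154 CPM (148 to 160) in pericentral, 73.0 CPM in intermediate and 18.7 CPM (17.1 to 20.5) in periportal nuclei, an 8.20-fold ratio and a log2 ratio of 3.04 (2.89 to 3.18). Oat, the mitochondrial ornithine aminotransferase gene, had 337, 121 and 51.2 CPM, a 6.57-fold ratio. Aldh3a2, an aldehyde dehydrogenase gene for long-chain fatty aldehydes, had 306, 149 and 67.6 CPM, a 4.52-fold ratio. For each of them the counting intervals of the pericentral and periportal values lay apart. The genes were named by ratio and interval, so this adds no support. Pdk4, the kinase that shuts down pyruvate dehydrogenase, had 226, 86.0 and 52.0 CPM, and Cyp3a11, the main CYP3A drug-metabolising enzyme of mouse liver, had 326, 181 and 94.3 CPM. Lgr5, the R-spondin receptor, had 52.2, 25.7 and 18.2 CPM, and Sp5 had 39.8, 18.7 and 13 CPM. Each of these genes had its intermediate value in the nuclei between the limits.

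The other 5 of the 12 named pericentral genes had log2 ratios between 1.31 and 1.47. They were Cyp2c67, Plcxd3, Ccn1 (a matricellular protein induced by YAP), Slco1b2 (a bile acid and drug uptake transporter) and Cyp7a1, the rate-limiting enzyme of bile acid synthesis. Cyp7a1 had 19.3 CPM (17.3 to 21.5) in pericentral and 7.75 CPM (6.69 to 8.89) in periportal nuclei. Slco1b2 had 572, 407 and 227 CPM, all from 1 wide peak. When each peak was scored as open or closed in a nucleus in place of counted, 4 of these genes fell below 1.5-fold, Pdk4 to a log2 ratio of 0.43, Cyp3a11 to 0.34, Ccn1 to 0.24 and Slco1b2, turned in sign, to −0.13. Each of the 4 holds a single peak. With every nucleus thinned to the same number of counts, 42.0% of pericentral and 12.7% of periportal nuclei had a count over Pdk4. For Cyp3a11 the thinned shares were 49.3% and 20.8%. For both genes a difference thus remained at equal depth. Such shares were not computed for Ccn1 and Slco1b2. Cyp2c and Cyp3a genes have close paralogs, and reads that fit several copies could have been split or dropped by the alignment, so ratios within these families are uncertain.

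Among the periportal genes with at least 1000 counts, Hsd17b13, which encodes a lipid droplet retinol dehydrogenase, had the largest ratio. It had 57.4 CPM (53.9 to 61.1) in pericentral, 153 CPM in intermediate and 331 CPM (324 to 338) in periportal nuclei, a 5.77-fold ratio and a log2 ratio of −2.53 (−2.62 to −2.43). Sdsl, a serine dehydratase gene next to the marker Sds, had 17.2, 49.6 and 72.1 CPM. Sfxn1, the mitochondrial serine importer, had 34.3, 92.2 and 119 CPM. An enzyme and a transporter gene of serine, besides the marker, were thus more accessible in the periportal nuclei. Aldh1b1, a mitochondrial aldehyde dehydrogenase gene, had 8.21, 12.3 and 23.4 CPM, Etnppl, the ethanolamine phosphate phospholyase gene, had 27.0, 47.1 and 69.6 CPM, and Sox9, a transcription factor of bile ducts and of the hepatocytes beside them, had 17.0, 33.1 and 43.4 CPM.

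The remaining named periportal genes were Olfm3, Mrgpre, Kcnh7, Chrm3 and Defb1, with log2 ratios from −1.77 to −1.37. Several of them are known mainly from neurons, and what is measured here is open chromatin within their bodies. Chrm3 carried 19 peaks and went from 101 CPM in periportal to 38.2 CPM in pericentral nuclei.

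For the genes given here the groups also differed in the share of nuclei with a count. Such a share depends on the summed level as well, so it is not separate support. After every nucleus was thinned to 3000 counts, 52.5% (48.9 to 56.0) of pericentral and 13% (11.4 to 14.8) of periportal nuclei had a count over Oat, against 86.7% and 45.9% without thinning. For Cyp2c29 the thinned shares were 27.9% and 4.89%, and without thinning 73.6% and 23.1%. For Hsd17b13 they were 15.7% and 52.6%, and without thinning 55.7% and 86.7%. No population that should lack these genes was set apart in this library, so the share due to stray cuts was not measured.

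Across 6 bands of the marker share the named genes described here moved in 1 direction from band to band, with Mrgpre and Kcnh7 as the exceptions. Over Oat the level went from 45.6 CPM in the 926 nuclei with a share of at most 0.1 through 57.4, 87.8, 157 and 289 CPM to 433 CPM in the 311 nuclei above 0.8. Over Hsd17b13 it went from 352 CPM in the most periportal band through 309, 198, 103 and 63.7 CPM to 45.1 CPM in the most pericentral band. Sp5 and Lgr5 moved late, Sp5 from 12.4 to 21.0 CPM over the first 4 bands and then to 33.0 and 53.2 CPM, and Lgr5 from 16.5 to 30.1 CPM and then to 47.8 and 61.1 CPM. Cyp2c29 moved earlier and flattened, with 51.1 CPM in the third band, 96.9 CPM in the fourth, and 150 and 160 CPM in the last bands. Sfxn1 stayed between 103 and 124 CPM over the 3 most periportal bands and went to 18.6 CPM in the most pericentral one. The shapes of these profiles were not compared by a test.

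**Figure D2:**
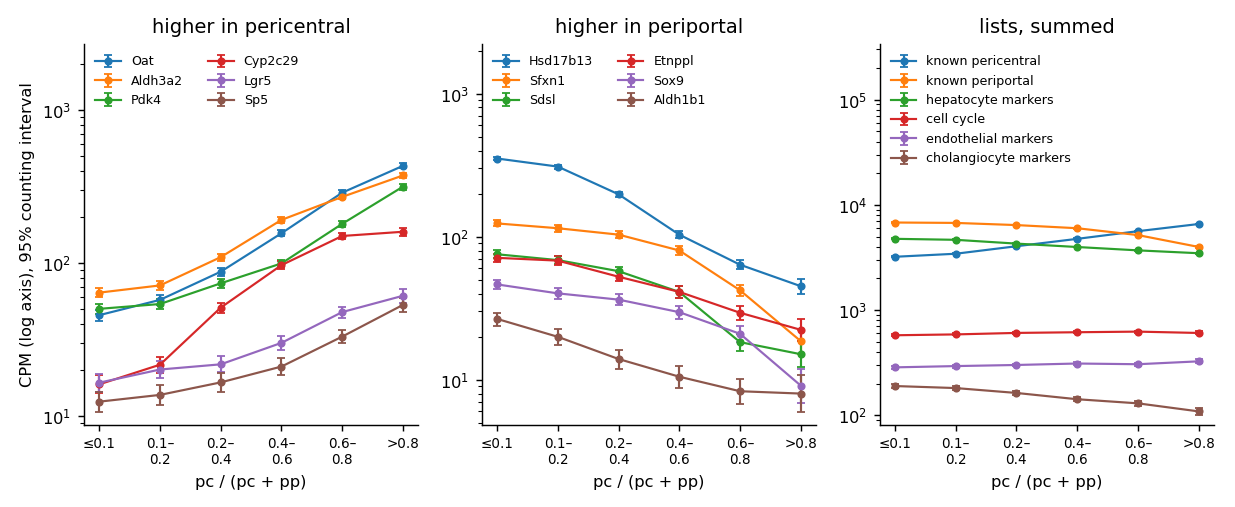
CPM (log axis) with 95% counting intervals in 6 bands of the pericentral marker share (x axis), from at most 0.1 (926 nuclei) to above 0.8 (311 nuclei), for 6 pericentral genes, 6 periportal genes and 6 summed lists. Oat climbs from 45.6 to 433 CPM, Hsd17b13 descends from 352 to 45.1 CPM, and the summed cell cycle genes stay between 577 and 625 CPM.

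Other genes of textbook zonation went the way of the markers. These lists and those below were chosen with earlier results of these data known, so their counts are a description. As a background, 1.49% of all genes were higher in pericentral and 1.71% in periportal nuclei. Of 36 known pericentral genes outside the markers, all of them measured, 22 were at least 1.5-fold higher in pericentral and 0 in periportal nuclei, with a median log2 ratio of 0.81 against 0.04 over all genes. Of 27 known periportal genes, 15 were at least 1.5-fold higher in periportal and 0 in pericentral nuclei, with a median of −0.59. Without the shared barcodes the medians were 0.81 and −0.58. Summed over the lists, the pericentral genes had 5947 CPM in pericentral and 3320 CPM in periportal nuclei, and the periportal genes had 4774 and 6775 CPM.

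Beyond the genes already described, the known pericentral genes past 1.5-fold included Cyp2c38 (log2 ratio 2.55), Cyp2c50 (1.24), the transcription factor gene Tbx3 (1.1), the aryl hydrocarbon receptor gene Ahr (0.92) and the amino acid transporter gene Slc16a10 (0.92). The known periportal genes past it included Ctsc, a lysosomal protease gene (−1.26), Cdh1, the E-cadherin gene (−1.24), and Arg1, the last enzyme of the urea cycle (177 against 350 CPM, −0.99). Gldc of the glycine cleavage system stood at −0.89, Uroc1 of histidine breakdown at −0.75, Asl at −0.61 and Cps1, the first enzyme of the urea cycle, at −0.59 (629 against 948 CPM).

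In the Wnt pathway single target genes differed, while the median of the list was that of all genes. Of 27 measured genes, 6 were higher in pericentral and 2 in periportal nuclei, where 1.49% and 1.71% of all genes were. The list had a median log2 ratio of 0.04. The 6 were Sp5, Lgr5, Tbx3, Nkd1 (1.1), Axin2 (0.80) and Notum (0.62), and the last 3 encode inhibitors that Wnt signalling itself induces. Axin2 had 61.8 CPM in pericentral and 35.6 CPM in periportal nuclei. Rnf43, a ligase that removes Wnt receptors, stood at 0.50 and the co-receptor gene Lrp5 at 0.42, below the fold used. The 2 higher in periportal nuclei were Tcf7l1 (133 against 259 CPM, −0.96), which encodes a TCF protein that mainly represses, and Sfrp1 (−0.64), which encodes a secreted Wnt antagonist.

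Drug metabolism and fatty acid oxidation leaned towards the central vein. Among all genes 1.49% were higher in pericentral and 1.71% in periportal nuclei. Of 93 measured P450 and drug metabolism genes, 18 were higher in pericentral and 2 in periportal nuclei, with a median of 0.20. Above 0 lay 68 of the 93 ratios, and 8831 of the 14973 over all genes. The 18 included 7 Cyp2c genes, Por, the electron donor of all microsomal P450s, Cyp4a10 (1.21), Gsta3, a glutathione transferase gene (260 against 127 CPM, 1.04), and Ces2c (0.96). The 2 exceptions were Cyp2a12 (−0.86) and Sult1a1 (−0.61). Of 37 genes of fatty acid oxidation and ketone synthesis, 5 were higher in pericentral and 0 in periportal nuclei, with a median of 0.17. They were led by Cyp4a10 and Acaa1b, a peroxisomal thiolase gene (466 against 210 CPM, 1.15), both known targets of PPARalpha.

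Of the bile acid genes, several of synthesis and an uptake transporter gene were higher in pericentral nuclei. Of 35 genes, 6 were higher in pericentral and 0 in periportal nuclei, where 1.49% and 1.71% of all genes were. The median was 0.05, against 0.04 over all genes. The synthesis genes Cyp7a1, Cyp27a1 (0.89), Akr1c6 (0.83) and Hsd3b7 (0.66) were among the 6, with the uptake transporter gene Slco1b2. The canalicular export pump gene Abcb11 stood at −0.44, with 209 against 283 CPM, below the fold used.

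Amino acid, lipid and plasma protein genes leaned towards the portal tract at some of their members. The shares over all genes were 1.71% higher in periportal and 1.49% higher in pericentral nuclei. Of 57 genes of the urea cycle and amino acid breakdown, 11 were higher in periportal and 2 in pericentral nuclei, with a median of −0.07. The 2 were Oat and Prodh, the proline dehydrogenase gene (0.84). Of 49 genes of lipid synthesis, 8 were higher in periportal and 0 in pericentral nuclei, with a median of −0.08. Besides Hsd17b13 they included Acly, which makes cytosolic acetyl-CoA (117 against 298 CPM, −1.34), the cholesterol synthesis genes Sqle (−0.96), Cyp51 (−0.77) and Idi1 (−0.63), the regulator gene Srebf1 (−0.67) and Lpin1 (−0.60). Of 97 plasma protein genes, 9 were higher in periportal and 1, Serpina6 (0.80), in pericentral nuclei, with a median of −0.22. Below 0 lay 71 of the 97 ratios, and 6142 of the 14973 over all genes. Alb, the albumin gene, had 349 CPM in pericentral and 772 CPM in periportal nuclei (−1.15).

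**Figure D3:**
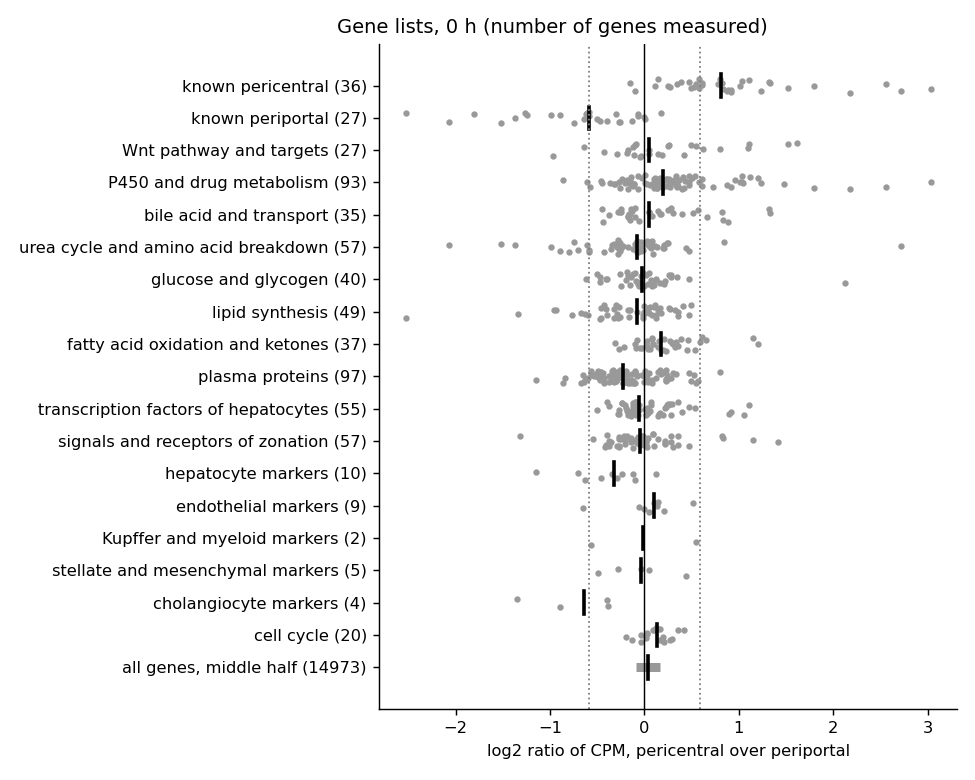
Log2 ratio of pericentral over periportal accessibility for each measured gene (points) of the fixed lists, with the median of each list, in the PHx 0 h library. Black bars are the medians, 0.81 for the known pericentral and −0.59 for the known periportal genes, the bottom bar is the interquartile range of all 14973 genes around their median of 0.04, and the dotted lines mark 1.5-fold.

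Few genes of glucose metabolism and none of the cell cycle list passed 1.5-fold. Over all genes the shares were 1.49% higher in pericentral and 1.71% higher in periportal nuclei. Of 40 glucose and glycogen genes 1, Pdk4, was higher in pericentral and 1, Fbp1 of gluconeogenesis (−0.62), in periportal nuclei, and Pck1 stood at −0.40 (629 against 830 CPM). Of 55 transcription factor genes 4 were higher in pericentral nuclei, where 1.49% of all genes were, namely Tbx3, Pparg (162 against 77.9 CPM, 1.05), Ahr and Esrrg (0.89), and 0 in periportal nuclei. Hnf4a, which defines hepatocytes, stood at −0.12 (451 against 491 CPM) and Cebpa at −0.37. Of 20 cell cycle genes none of either direction passed 1.5-fold, with a median of 0.13 and ratios from −0.19 to 0.42.

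Among 57 receptor and signal genes, 4 were higher in pericentral and 1 in periportal nuclei, where 1.49% and 1.71% of all genes were. The median of the list was −0.05. Among the 4 were Ccn1, the TGF-beta co-receptor gene Tgfbr3 (0.84) and the vasopressin receptor gene Avpr1a (0.82). The 1 was Fgfr1, a fibroblast growth factor receptor gene (30.5 against 75.9 CPM, −1.32), and Egfr stood at −0.55 (303 against 442 CPM). Of 7 cholangiocyte marker genes Krt19, Krt7 and Cftr held no peak counts, which can mean that no peak was called there. The 4 measured were all lower in pericentral nuclei, with Sox9 and Spp1 (−0.89) past 1.5-fold. The list summed to 123 CPM in pericentral, 153 CPM in intermediate and 186 CPM in periportal nuclei, which stands beside the Sox9 value, and the part of bile duct nuclei in it was not tested.

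Distal peaks differed more often than genes. Of 26808 distal peaks with at least 400 counts, 1068 (3.98%) were at least 1.5-fold higher in pericentral nuclei and 1731 (6.46%) were at least 1.5-fold higher in periportal nuclei, and without the shared barcodes 399 and 941 of 13329 such peaks were. With peaks scored as open or closed the numbers were 1027 and 1017. A peak with few counts passes a fold limit more easily, so promoter and distal peaks were set side by side within bands of counts. From 400 to 600 counts 12.5% of promoter and 13.5% of distal peaks passed 1.5-fold, from 600 to 1000 counts 8.35% and 11%, from 1000 to 2000 counts 4.27% and 7.74%, and from 2000 to 5000 counts 1.90% and 4.02%. Distal peaks passed it more often in each band, by the smallest margin at the lowest counts.

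Several of the named distal peaks with the largest pericentral ratios lay at Oat or in the Cyp2c family. The first was at chr19:39305418-39311675 in the body of Cyp2c29, with 36.0 CPM in pericentral, 16.0 CPM in intermediate and 2.93 CPM in periportal nuclei, a log2 ratio of 3.62 (3.27 to 3.99). The second was at chr7:132551023-132566168 over the 3′ part of Oat, with 207, 61.6 and 20.5 CPM (3.33). The third was intergenic at chr4:61806896-61809466, 24627 bp from the start of the major urinary protein gene Mup19, with 31.4, 13.7 and 4.41 CPM (2.83). Others lay in Lhpp (2.65), near Cyp2c50 (2.39) and Cyp2c54 (2.23), and 4808 bp from the start of Cyp2e1 (1.94), a marker that chose the nuclei.

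The periportal peaks lay mostly in introns or far from genes. The first was intergenic at chr9:112022564-112024244, with 1.75 CPM in pericentral, 9.56 CPM in intermediate and 21.4 CPM in periportal nuclei, a log2 ratio of −3.62 (−4.19 to −3.09). The second was intronic in Fgfr2 at chr7:130246264-130249381, 12476 bp from its start, with 4.03, 17.8 and 40.8 CPM (−3.34). The third was intronic in Tent5c at chr3:100484682-100486265, with 2.71, 9.33 and 21.9 CPM (−3.02). Others lay in introns of Esr1, the oestrogen receptor gene (−2.56), and of Tcf7l1 (−2.08). Esr1 as a whole stood at −0.36 and Fgfr2 as a whole at 0.36, and the annotated span of Fgfr2, chr7:130162451-133123350 in GENCODE vM21, also covers Oat and Lhpp, so its sum mixes these loci. Of 68 measured peaks in that span 14 were higher in pericentral and 5 in periportal nuclei.

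Distal peaks tended to share the direction of the promoter of the nearest gene, though most had a promoter that passed no fold. Among pericentral distal peaks with a measured nearest promoter, 11.7% had one that was itself higher in pericentral nuclei and 0.346% one that was higher in periportal nuclei. Among periportal distal peaks the shares were 14.1% for a periportal and 0.139% for a pericentral promoter. Among distal peaks past neither fold they were 1.2% pericentral and 2.13% periportal. Of 705 genes with a pericentral peak and 1003 with a periportal peak, 41 held both. The overlap given by the shares over all genes was not computed, so 41 is not read as few or many.

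The Cyp2 cluster on chromosome 7 held peaks of both directions. Cyp2a5 and Cyp2f2 lie in it and are markers that chose the nuclei, so their log2 ratios, 3.29 and 3.49 at the 2 peaks of Cyp2a5 with at least 400 counts and −2.55 at Cyp2f2, are a description only. Of the peaks outside the rule, the promoter of Cyp2g1 stood at 1.1 and the promoter of Cyp2a12 at −0.75, with a distal peak next to it at −1.06. The promoters of Egln2 (0.05) and Rab4b (0.16) beyond Cyp2f2 passed no fold. In the Cyp2c cluster on chromosome 19 the promoter peak of Cyp2c29 stood at 1.84 and 5 peaks in its body at 3.21 to 4.63, so the body carried larger ratios than the promoter.

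The Oat locus showed an extended stretch of one direction. The peak over the 3′ part of Oat stood at 3.33, its promoter peak at 2.06 (121 against 29.0 CPM), the next upstream peak at 2.41, and the promoter of the neighbouring gene Lhpp at 2.12, with peaks in Lhpp at 2.65 and 2.42. Lhpp, a phosphatase gene, had 216 CPM in pericentral and 97.3 CPM in periportal nuclei over all its peaks, a log2 ratio of 1.15. At Hsd17b13 the ratio was local, with −2.53 over the gene, −1.09 in the next distal peak and 0.11 at the promoter of the neighbouring family member Hsd17b11. At Alb the gene stood at −1.15 and an upstream distal peak at −1.74 (5.87 against 19.6 CPM), while a peak of the Afm promoter stood at −0.14.

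The DNA of the distal peaks was searched for 29 short motifs in the central 300 bp, on both strands. The TCF/LEF core CTTTGAT was present in 10.3% (8.54 to 12.3, exact binomial) of the 1068 pericentral windows, 4.51% (3.58 to 5.59) of the 1731 periportal windows and 5.21% of the windows past neither fold, and in 5.36% of all distal windows. The intervals of the pericentral and periportal shares did not overlap for 2 of the 29 motifs, this one and the C/EBP motif TTGCNNAA, which was present in 21.0% of pericentral, 15.2% of periportal and 16.5% of the other windows. In distal peaks with at least 1000 counts, an alternative chosen after seeing the data, the intervals overlapped for both, with the TCF/LEF core in 8.92% (5.46 to 13.6) of 213 pericentral and 4.62% (2.76 to 7.2) of 390 periportal windows and the C/EBP motif in 14.1% and 14.6%. The HNF4A motif CAAAGTCCA, which shares the letters CAAAG with the reverse of the TCF/LEF core, was present in 1.78% and 1.5%. The STAT motif TTCNNNGAA was present in 7.49% of pericentral and 9.53% of periportal windows, with overlapping intervals. The median GC content of the windows was 47.3% in pericentral and 46.0% in periportal peaks.

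The share of windows with the AP-1 motif TGANTCA went up towards the pericentral side. It was 10% for log2 ratios from −0.25 to 0.25, 11.5% up to 0.58, 11.6% up to 1, 16.3% up to 1.5 and 18% above. AP-1 was in 13.1% (11.1 to 15.3) of all pericentral and 10.5% (9.11 to 12.1) of periportal windows, with overlapping intervals. Among windows past neither fold it was in 10.1% (9.73 to 10.5). A rise was thus not particular to the TCF/LEF core. The TCF/LEF share also went up with the ratio. It was 5.47% of the 128 windows with log2 ratios below −1.5, 4.72%, 4.36%, 5.33% and 5% in the next 4 bands, 6.05% from 0.25 to 0.58 (1.5-fold), 9.34% of 760 windows from there to 1, 11.5% of 208 windows from 1 to 1.5 and 15% (8.65 to 23.5) of the 100 windows above 1.5. In the 654 pericentral peaks of at most 1500 bp the core was found in the 100 bp after the centre in 4.74% and in the 100 bp before it in 3.82%, against 2.14% and 1.38% in the outermost 100 bp, while in the 897 periportal peaks of that length the share per 100 bp stayed between 1.11% and 2.23%. In RefSeq promoter windows, 250 bases before to 50 after the start, 3.73% of all 32851 held the core, as did 2 of the 10 named pericentral genes with a RefSeq window (Sp5 and Cyp2c29, shown above) and 0 of the 8 named periportal genes with one. The HNF4A motif was likewise in 2 of these 10 and 0 of the 8, against 0.475% of all promoter windows. The glucocorticoid receptor motif ACANNNTGT (6.85% of all) and the HIF motif NACGTG (19.6% of all) gave the same 2 and 0. These promoter counts are thus not particular to the TCF/LEF core. A match says only that the letters are present.

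**Figure D4:**
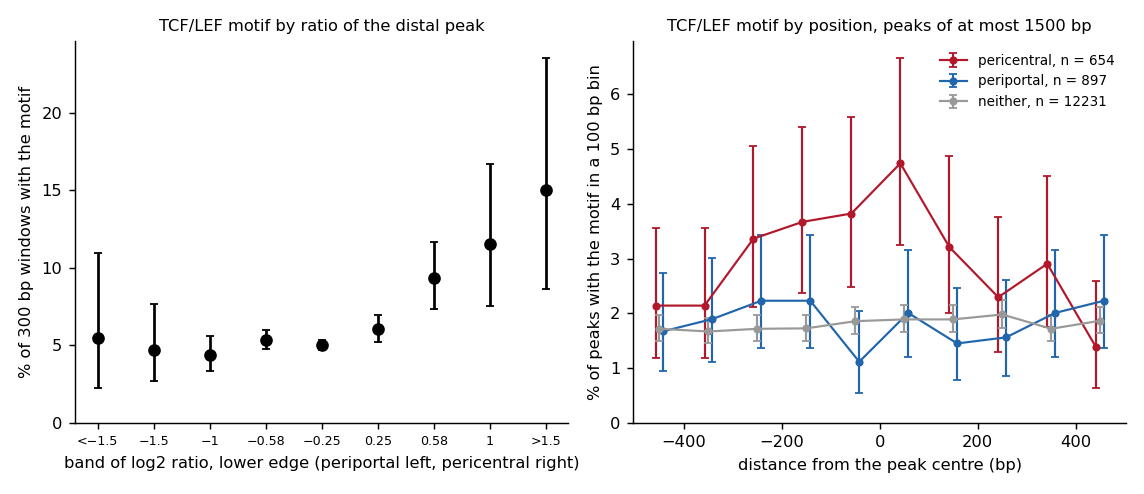
Left, percent of distal windows of 300 bp with the TCF/LEF core motif by band of the log2 ratio of pericentral over periportal. Right, percent of distal peaks of at most 1500 bp with it in each 100 bp by distance from the peak centre, both with 95% exact binomial intervals. The share stays between 4.36% and 6.05% up to 1.5-fold and reaches 15% in the most pericentral band.

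The same rule was applied to the libraries after PHx, with the genes chosen at 0 h. It found 950 pericentral and 887 periportal nuclei at 48 h, 655 and 703 at 72 h, and 404 and 431 at 96 h, with median counts falling to 6986.5 and 5359 at 96 h. Of the 223 pericentral genes of 0 h, 180 reached 400 counts at 48 h, 175 of these had the same sign and 55 passed 1.5-fold, where 0.748% of all 13638 genes were pericentral. Of the 256 periportal genes, 193 were measured, 179 had the same sign and 48 passed 1.5-fold, where 0.477% of all genes were periportal. Some of these barcodes also occur at 0 h, and without them, an alternative chosen after seeing the data, 889 and 870 nuclei were left at 48 h, and 169 of 171 pericentral and 172 of 185 periportal genes had the same sign. At 72 h 94 of 101 measured pericentral and 99 of 109 periportal genes had the same sign and 15 and 13 passed 1.5-fold, where 0.508% and 0.465% of all 7090 genes did. At 96 h 57 of 58 and 55 of 61 had the same sign and 12 and 11 passed 1.5-fold, where 0.859% and 0.63% of all 3494 genes did. Without barcodes of 0 h it was 91 of 100 and 100 of 109 at 72 h, and 54 of 56 and 53 of 59 at 96 h. Of the distal peaks, 233 of 249 measured pericentral and 367 of 422 periportal ones had the same sign at 48 h, and 93 and 68 passed 1.5-fold, where 2.35% and 1.6% of all 8399 distal peaks did. Few distal peaks were measured later, 9 pericentral and 28 periportal ones at 72 h, of which 3 and 2 passed 1.5-fold (3.9% and 1.3% of all 538), and 5 and 4 at 96 h, of which 2 and 1 did (8.67% and 8.0% of all 150). Genes chosen for large ratios at 0 h would give smaller ones elsewhere by that choice alone, so sizes are not compared, and differences between libraries were not tested.

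Of the named pericentral genes, the 10 measured at 48 h, the 10 at 72 h and the 8 at 96 h had the sign of 0 h, as did 12 of 12 named periportal genes at 48 h, 4 of 5 at 72 h and 2 of 2 at 96 h. Cyp2c29 had log2 ratios of 3.04, 2.41, 1.85 and 1.85 at 0, 48, 72 and 96 h, and Oat of 2.72, 2.09, 1.42 and 0.88. Hsd17b13 had −2.53, −1.97, −1.09 and −1.41. The known pericentral list had medians of 0.81, 0.55, 0.37 and 0.37, with 36, 36, 24 and 18 genes measured, and the known periportal list −0.59, −0.55, −0.46 and −0.44, with 27, 27, 21 and 15. Alb stood at −1.15, −0.10, −0.27 and −0.35, and Arg1 at −0.99, −0.99, −0.71 and −0.76.

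**Figure D5:**
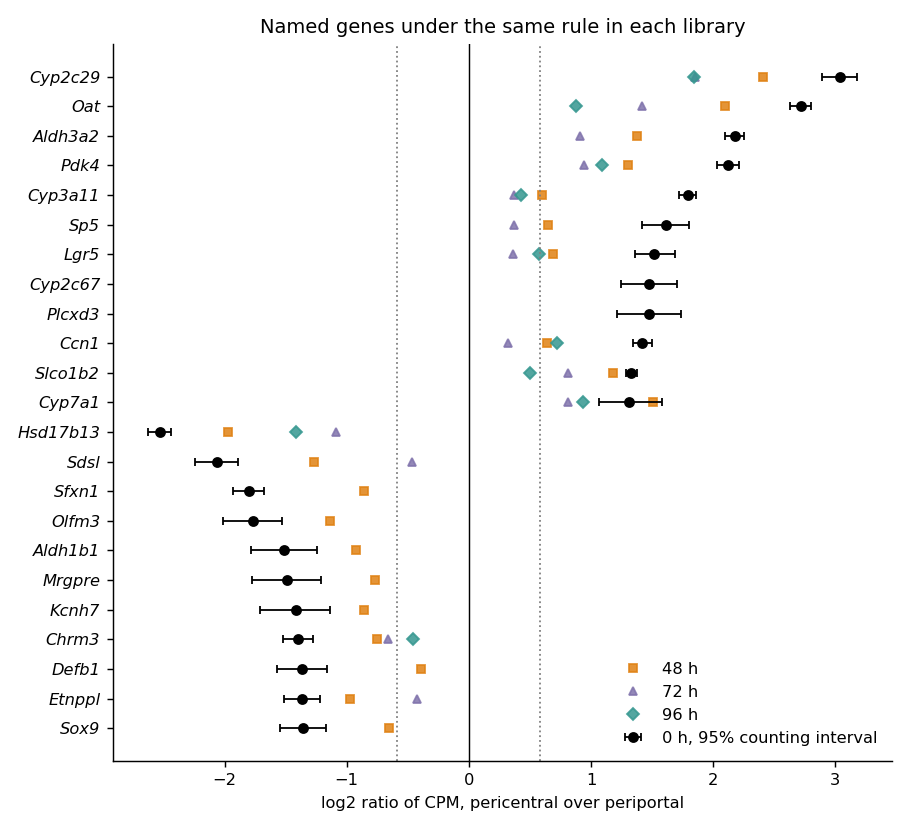
Log2 ratio of CPM, pericentral over periportal nuclei, of the named genes described in the text, with the 0 h value and its 95% counting interval in black and the values of the libraries at 48, 72 and 96 h, where measured, as coloured symbols. The dotted lines mark 1.5-fold. Cyp2c29 goes from 3.04 at 0 h to 1.85 at 96 h and Hsd17b13 from −2.53 to −1.41, and the plot leaves out named genes not reported here.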

How the data were processed

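For each time point (0, 48, 72 and 96 h) the authors deposited a matrix of counts per peak and barcode, made with Cell Ranger ATAC 1.1.0 against mm10 per the file headers, with peaks called in each library separately. These counts are raw, not normalized: 136949314 over 119839 peaks and 4645 barcodes at 0 h, where 88.6% of the values are even, since both ends of a fragment are counted, so intervals were computed on counts divided by 2. No chromatin fragments were read anew, no doublet caller was run, and the filters are at least 3000 counts per nucleus and at least 4 marker counts.

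Genes are GENCODE vM21 bodies with 2000 bp upstream, and a gene's value is the sum over all peaks that overlap it. Peaks within 1000 bp of a gene start were called promoter peaks and the others distal. Peaks of the marker windows, and 17 genes that overlap them, were left out of totals and ratios. Counts were summed per group and scaled to CPM. With 1 library per time point there is no test: a gene or peak with at least 400 counts was counted as higher at a ratio of 1.5-fold or more, with exact Poisson intervals for levels, exact conditional intervals for ratios and exact (Clopper-Pearson) binomial ones for shares, all at 95%. Named in each direction were the 12 protein-coding genes and 8 distal peaks with the largest ratio among those with at least 1000 counts whose interval leaves out equality. A gene that draws most of its counts from peaks of a higher-ranked one was to be named beside it, and no such gene occurred. Some of the genes and peaks this rule names, and some list members, are not reported here. From the lists the members with the largest ratios were named, and Lhpp, Rasgrp1, Susd4 and the genes of the loci were named after their values were seen. The nuclei's rule and the 20 gene lists were chosen with earlier results of these data known. The motif search and sequences used GRCm38 and RefSeq promoter windows of GRCm38.p6. The count scripts were tested on simulated data. Alternatives changed depth and marker limits, the fold, the count minimum, scaling, scoring and the markers. Python 3.11.15, numpy 2.4.6, pandas 2.3.3, scipy 1.17.1, pysam 0.24.0, samtools 1.23.1 and matplotlib 3.10.9 were used.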

Additional observations from a re-analysis of the deposited data

Results flagged for a closer look

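Nuclei under 3000 counts were left out of the comparisons, and the same marker rule applied to them found 53 pericentral and 94 periportal nuclei. Over the known pericentral genes these pericentral nuclei had 5798 CPM and the periportal ones 2803 CPM, a log2 ratio of 1.05 (0.78 to 1.32, 95% counting interval), against 0.84 for the summed list in the nuclei with at least 3000 counts. Over the known periportal genes they had 5051 and 6090 CPM, a log2 ratio of −0.27 (−0.51 to −0.03), against −0.51 in the deeper nuclei. The shallow nuclei thus held a signal of the same direction in both lists.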

How the results depend on the processing

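No paired analysis was possible because each time point is 1 library and the labels share no replicate numbers across groups. Pericentral and periportal nuclei numbered 718 and 1361 at 10000 counts per nucleus, 743 and 1518 at 10 marker counts, and 326 and 926 at limits of 0.8 and 0.1. Those limits gave 355 and 398 genes, 452 and 1081 distal peaks, and medians of 0.96 and −0.83 for the known pericentral and periportal genes. Without the 5% deepest nuclei 743 were pericentral, and without Cyp2a5 and Cyp2f2 in the rule 1486 were periportal. With any 1 marker left out, the rule gave 376 to 1272 pericentral and 944 to 2025 periportal nuclei, down to 169 periportal genes, 1147 to 2731 periportal distal peaks, a pericentral median down to 0.68 and a periportal median of −0.76 to −0.43. Leaving out Cyp2e1, which gave the largest share of pericentral marker counts, set the lowest pericentral and the highest periportal number of nuclei. At a lower log2 limit of 0.32, 1075 and 939 genes and 3005 and 5140 distal peaks passed, and at 2-fold 59 and 56 genes and 308 and 446 peaks. At 100 counts per feature 351 genes were pericentral and 5042 and 6444 distal peaks passed, and at 1000 counts 213 and 390 peaks did, with more or fewer features measured. With peaks scored as open or closed, 175 genes were pericentral and 119 periportal, against 1027 and 1017 distal peaks, the medians were 0.43 and −0.44, and Slco1b2 turned to −0.13, the only reversed value among 593 of the named genes and peaks, and the cause was not tested. The alternatives without shared barcodes, also in the later libraries, and with other motif peaks were chosen after seeing the data. Without shared barcodes 552 and 1288 nuclei and 399 and 941 distal peaks remained, from fewer nuclei. In distal peaks of at most 1500 bp the TCF/LEF core was in 12.8% of pericentral windows, and in those with at least 1000 counts in 8.92% of pericentral and 4.62% of periportal ones, with overlapping intervals. Counts of genes and distal peaks and list medians stayed within 1.5 times or the counting spread when CPM was averaged over nuclei, with median scaling, with promoter peaks only, without nuclei of other cell type markers and without features within 1000000 bp of a marker. With 1 preparation the spread between mice is unknown.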
